A study of Bos taurus with 4 samples.

Results

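S1PR1, CD69 and SELPLG encode 3 surface proteins that decide whether a lymphocyte leaves a tissue, stays in it or slows on a vessel wall, and their transcripts were followed in sorted bovine gamma delta T cells. KLF2, another gene of the same circuit, was looked for by symbol and has no probe set named in the annotation used here, so that it was not analysed here. The genes were selected by symbol, with their response in these arrays already known, and they are covered by 5 of 24016 probe sets, or 3 of 9155 named genes. S1PR1 and SELPLG each have 2 probe sets and CD69 has 1. The groups are gamma delta T cells kept for 4 h with an aqueous extract of apple polyphenol (APP, 42.2 µg/ml) and cells of the same animals kept for 4 h with phosphate-buffered saline (PBS), the vehicle. Both groups hold 1 array from calf 301 and 1 from calf 303. All cells were sorted from blood to over 97% purity and rested overnight before treatment, and the calves are described both as neonatal and as 1 to 6 months old.

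Lymphocytes find their way out of lymph nodes and other tissues along a gradient of sphingosine 1-phosphate (S1P), which is high in blood and lymph and low inside tissue. S1PR1 is the receptor that reads this gradient, and KLF2 is a transcription factor that, in mouse T cells, drives the S1PR1 gene. CD69 is a lectin-like membrane protein induced early in lymphocyte activation, which in mouse and human cells binds S1PR1 and removes it from the surface. SELPLG encodes PSGL-1, the mucin-like ligand through which leukocytes roll on P-selectin. Its ability to bind selectins depends on sulfation and on sugars added after translation.

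The deposited values are ratios of each probe set to its own median over the 4 arrays. Changes between arrays can therefore be read, whereas the level of a gene cannot, and no gene could be ranked above another by abundance. Where the APP and PBS arrays separate, the construction also ties the inner pair of values together, since the lowest ratio on the higher side and the highest on the lower side sum to about 2 (1.98 to 1.99 for the 5 probe sets here). Log2 changes within a calf are free of this. A transcript measured in a mixture of cells also cannot be divided into fewer cells carrying it and less of it per cell.

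S1PR1, the egress receptor, was lower after APP in both calves and by both probe sets. Its probe set Bt.26265.2.S1_at stood at 0.446 in the APP array of calf 301 and 0.374 in that of calf 303, against 2.443 and 1.548 in the PBS arrays of the same animals. Its probe set Bt.26265.1.A1_at stood at 0.598 and 0.516 in the APP arrays of calves 301 and 303, against 1.937 and 1.393 in their PBS arrays. The APP and PBS arrays did not overlap for either probe set, though the share of all genes that separate in this way was not counted. The highest value of each probe set was the PBS array of calf 301. The first of these probe sets was 5.48-fold lower with APP in calf 301 and 4.14-fold lower in calf 303, and the second 3.24-fold and 2.70-fold lower. Averaged over probe sets, the log2 change was -1.91 ± 0.24 (SD, n = 2 calves), which is 3.75-fold, and 80 genes or 0.874% of all named genes had a more negative mean change. The 2 probe sets differed by 0.69 on the log2 scale, a wider gap than the median of 0.26 among the 2093 genes with 2 probe sets, and 16.5% of those genes had a wider one.

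CD69, the early activation antigen that retains lymphocytes in tissue, was higher after APP. Its probe set stood at 1.705 and 1.706 in the APP arrays of calves 301 and 303, against 0.241 and 0.279 in their PBS arrays. The groups were far apart, and each pair of replicate arrays lay close together. The change was 7.07-fold in calf 301 and 6.11-fold in calf 303, with a mean log2 change of 2.72 ± 0.15 (SD, n = 2 calves). In 35 named genes, or 0.382%, the mean rise was greater. A single probe set measured CD69, so that no second one checks it.

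SELPLG, the P-selectin ligand, was lower after APP by a smaller amount. Its probe set Bt.6976.1.S1_at stood at 0.695 and 0.639 in the APP arrays of calves 301 and 303, against 1.424 and 1.294 in their PBS arrays. For Bt.6976.2.S1_at the APP arrays of calves 301 and 303 stood at 0.511 and 0.737, against 1.253 and 1.841 in the PBS arrays. The groups did not overlap for either probe set, though here too the share of all genes that separate in this way was not counted. The changes of the calves nearly coincided, at 2.05-fold in calf 301 and 2.03-fold in calf 303 for the first probe set and at 2.45-fold and 2.50-fold for the second. The mean log2 change over both was -1.17, with an SD of 0.0035 over the 2 calves that is narrower than the difference of 0.28 between its probe sets, and 5.67% of named genes had a more negative change. Only 1.62% of named genes had a smaller gap between the calves, where the median gap was 0.15.

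**Figure D1:**
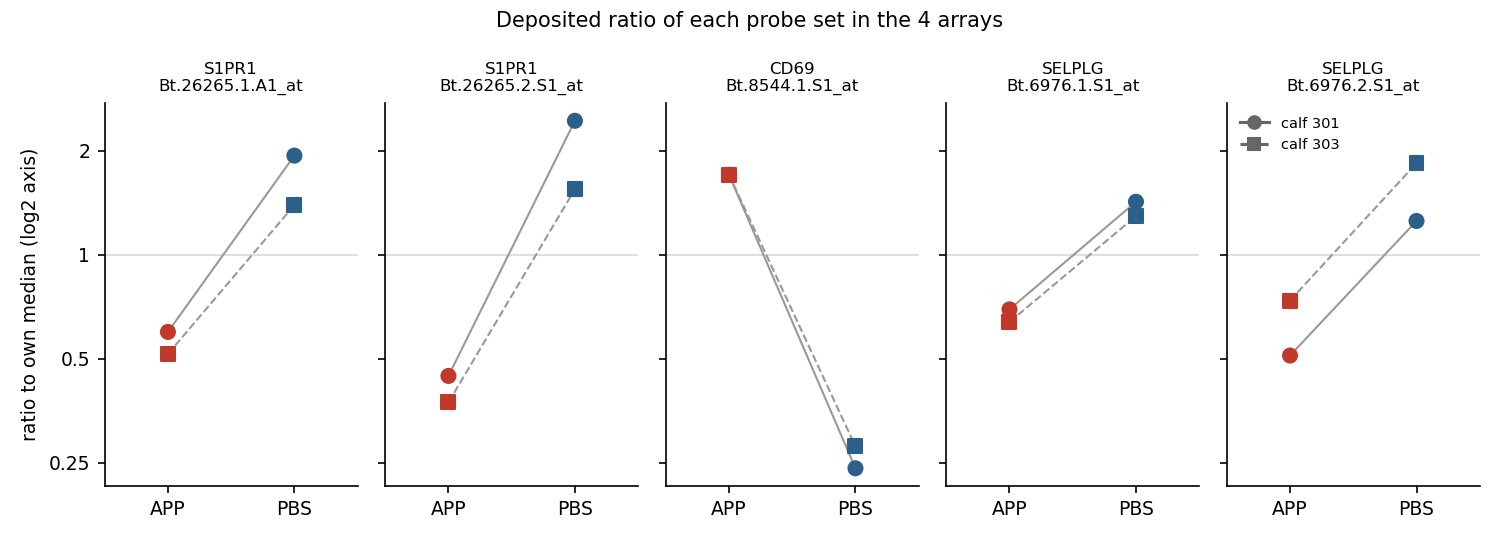
Deposited ratio of each of the 5 probe sets (vertical axis, log2-spaced, relative to the probe set's own median) in APP and PBS arrays, with circles for calf 301 and squares for calf 303 and a line joining the arrays of 1 animal. In all 5 panels the APP and PBS arrays lie apart, lower with APP for S1PR1 and SELPLG and higher with APP for CD69 (1.705 and 1.706 against 0.241 and 0.279). The share of all probe sets that separate in this way was not counted.

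All 5 probe sets and all 3 genes changed at least 2-fold in both calves. Among all named genes 3.5% were at least 2-fold higher and 6.29% at least 2-fold lower with APP in both, and among all probe sets 2.93% and 6.43%. The lowest of these changes lay just inside that limit, at 2.03-fold for Bt.6976.1.S1_at of SELPLG in calf 303. Among all named genes 7751 of 9155 changed in the same direction in both calves. How many of them had no overlap between APP and PBS arrays was not counted. Because the 3 selected genes were chosen for their response to APP, their values describe them and were not tested.

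The difference between the animals was not part of the choice and was tested in the same limma fit. For S1PR1, averaged over probe sets, calf 303 lay below calf 301 by -0.23 in the APP arrays and -0.57 in the PBS arrays on the log2 scale. The mean difference was -0.40 ± 0.11 (limma's standard error), with an unadjusted p = 0.0102 and an adjusted p = 0.149 in limma. For SELPLG calf 303 lay above calf 301 by 0.20 with APP and 0.21 with PBS (limma adjusted p = 0.331), and for CD69 by 0.0008 with APP and 0.21 with PBS (limma adjusted p = 0.663). By limma's adjusted p, 0 of the 3 genes differed between the animals, beside 1.7% of all named genes. At an unadjusted p under 0.05 it was 1 of 3, and the share of all genes at that limit was not counted. Each side of this comparison is a single calf, so the p takes its scatter from the arrays and not from animals. Scaling arrays to their hybridization controls shifts the calf difference of every gene by the same amount. There the difference for S1PR1 was -0.60 and passed (limma adjusted p = 0.00173), with CD69 at -0.09 and SELPLG at 0.006. On that scale limma gave every gene nearly the same standard error. Its p there follows the size of the difference and holds no scatter particular to S1PR1. The share of all genes that passed on that scale was not counted. After quantile normalization the difference for S1PR1 was -0.75 and did not pass (limma adjusted p = 0.145).

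The probe sets of SELPLG disagreed about the animals although they agreed about APP. Bt.6976.2.S1_at was higher in calf 303 by 0.53 with APP and 0.56 with PBS on the log2 scale, with a mean difference of 0.54 (limma adjusted p = 0.0997 over probe sets). Bt.6976.1.S1_at differed by -0.12 with APP and -0.14 with PBS (limma adjusted p = 0.610). Both S1PR1 probe sets were lower in calf 303, by a mean of -0.34 and -0.46 (limma adjusted p = 0.246 and 0.192).

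**Figure D2:**
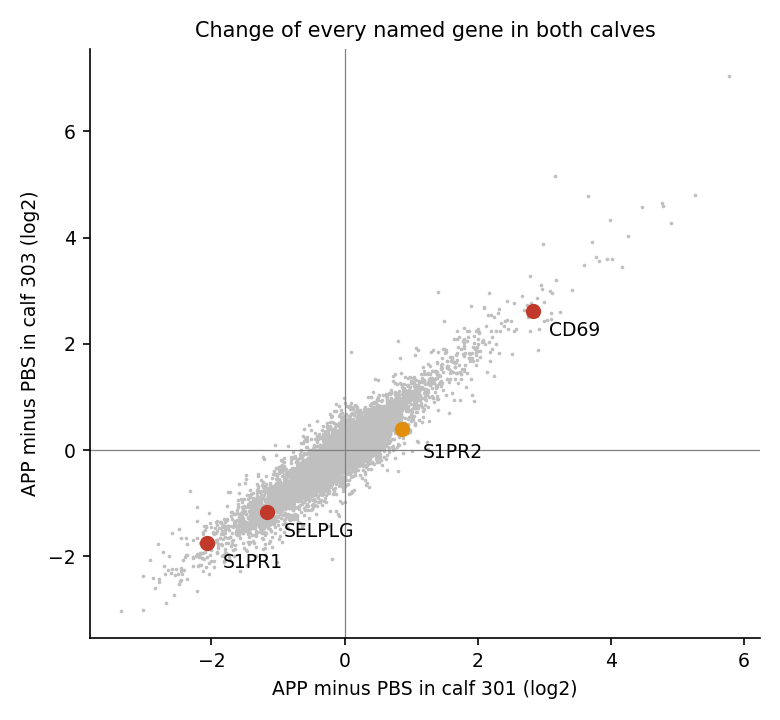
Log2 change, APP minus PBS, in calf 301 (horizontal axis) and calf 303 (vertical axis) for each of the 9155 named genes in grey, with the 3 selected genes in red and the receptor gene S1PR2 in orange. CD69 lies at 2.82 and 2.61, SELPLG at -1.16 and -1.17, S1PR1 at -2.07 and -1.74 and S1PR2 at 0.86 and 0.41, the last of which becomes negative in the mean on the scale of the hybridization controls.

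The other genes of the pathway were taken from 8 lists of 164 gene symbols, of which 103 were measured (102 beside S1PR1 itself). Of these 102, 37 rose, 26 fell and 39 did not pass limma's adjusted p of 0.05, beside 23% that rose and 29.7% that fell among all 9155 named genes (16.3% and 23.6% of all probe sets). The median change was 0.13 for the listed genes and 0.01 for all genes. All of these directions are relative to the bulk of the array. The 14 probe sets of the spiked hybridization controls bioB, bioC and bioD were higher in the APP arrays by 0.79 in calf 301 and 0.95 in calf 303, and scaling to them put the median of all genes at -0.86, with 3.32% of calls being rises in place of 43.6%. On that scale 13 of the 102 listed genes rose and 80 fell, S1PR1 changed by -2.78, SELPLG by -2.04 and CD69 by 1.85. Limma gave every gene nearly the same standard error there, so gene calls on that scale follow the size of the change alone. The fits that left out 1 array had no calf block either, so that calls and counts without an array differ from the blocked ones in both respects, and the count with all 4 arrays but no block is given beside them.

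**Figure D3:**
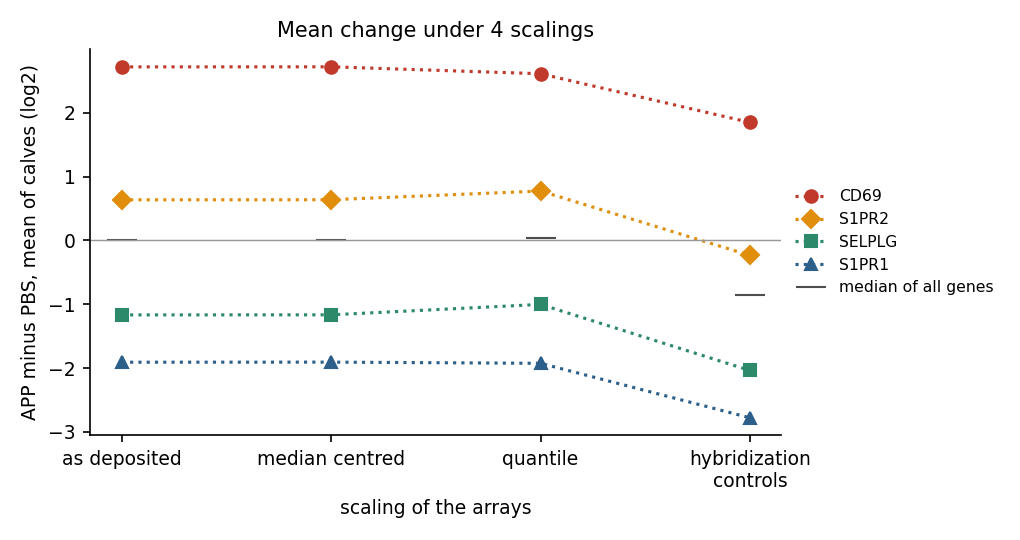
Mean log2 change of the 2 calves, APP minus PBS (vertical axis), for CD69, S1PR2, SELPLG and S1PR1 and for the median of all named genes under 4 scalings of the arrays (horizontal axis). CD69 stays above and S1PR1 and SELPLG below 0 under each of the 4, at 1.85, -2.78 and -2.04 on the hybridization controls, while S1PR2 goes to -0.23 there.

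S1PR2 was the other S1P receptor measured. It couples to G proteins that restrain migration, where S1PR1 promotes it. Its ratio was 1.313 and 1.136 in the APP arrays of calves 301 and 303, against 0.722 and 0.856 in their PBS arrays. It rose 1.55-fold (log2 changes 0.86 in calf 301, 0.41 in calf 303, limma adjusted p = 0.00553), opposite to S1PR1, though it was at -0.23 on the scale of the hybridization controls described above. In unblocked fits the call, which held with all 4 arrays (limma adjusted p = 0.0183), was lost without the APP array of calf 301 (limma adjusted p = 0.061) and without the PBS array of calf 301 (limma adjusted p = 0.088). S1PR3, S1PR4 and S1PR5 were not analysed here.

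Among enzymes and carriers that make, move and break down S1P, 5 of 14 measured fell and 2 rose. Over all named genes 29.7% fell and 23% rose. The median change of the 14 was -0.11. ASAH1, the acid ceramidase that frees sphingosine from ceramide, fell 2.37-fold, with ratios of 0.566 and 0.624 in the APP arrays of calves 301 and 303, against 1.367 and 1.454 in their PBS arrays. SGPP1, a phosphatase that returns S1P to sphingosine, fell by 0.91 ± 0.17 on the log2 scale, and SGPL1, the lyase that destroys S1P irreversibly, fell by 0.90 ± 0.05 (SD, n = 2 calves each). SPHK2, a kinase that makes S1P, fell by 0.65 ± 0.11, with -1.17 and -0.12 for its probe sets. SPHK1, the other such kinase, changed by 0.31 in calf 301 and 0.04 in calf 303 (limma adjusted p = 0.214), and by -0.70 on the hybridization controls. Thus members on both the producing and the degrading side were among those that fell. Limma's adjusted p ran from 7.38e-05 for ASAH1 to 0.00158 for SPHK2 among these 4. Without the block 4 fell and 1 rose. The falls numbered 3 without the PBS array of calf 301, where SPHK2 no longer passed (limma adjusted p = 0.078), SGPP1 did not pass without the PBS array of calf 303 (limma adjusted p = 0.067), and the rises numbered 0 without any 1 of the 4 arrays. All 14 fell on the hybridization control scale.

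Genes that carry or end the receptor's signal fell in 7 of 20 cases and rose in 3, beside 29.7% and 23% of all named genes. Their median was -0.09, and 18 of 20 fell on the hybridization control scale. ARRB2, a beta-arrestin that uncouples and internalises activated receptors, fell 2.68-fold (-1.50 in calf 301 and -1.34 in calf 303), and WWP2, a ubiquitin ligase reported to act on S1PR1, fell 2.51-fold (-1.23 and -1.42). GRK2, the kinase that prepares S1PR1 for arrestin binding, and GNAI2, the inhibitory G protein subunit through which S1PR1 signals, were also among the 7, at -0.67 and -1.13. The largest rises were those of RGS16 and RGS1, which speed the shutdown of such G proteins. RGS16 rose 2.51-fold (0.73 to 2.46 over its 3 probe sets), with ratios of 1.408 and 1.407 in the APP arrays of calves 301 and 303, against 0.558 and 0.564 in their PBS arrays. RGS1 rose 2.43-fold, with ratios of 1.357 and 1.391 with APP, against 0.615 and 0.518 with PBS. Limma's adjusted p for ARRB2, WWP2, RGS16 and RGS1 lay between 5.6e-05 and 0.000113. CORO1A, an actin regulator that mouse T cells need to leave the thymus, changed by -0.05 (limma adjusted p = 0.656). GRK2, GNAI2, SPHK1 and CORO1A were named after their values had been seen.

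**Figure D4:**
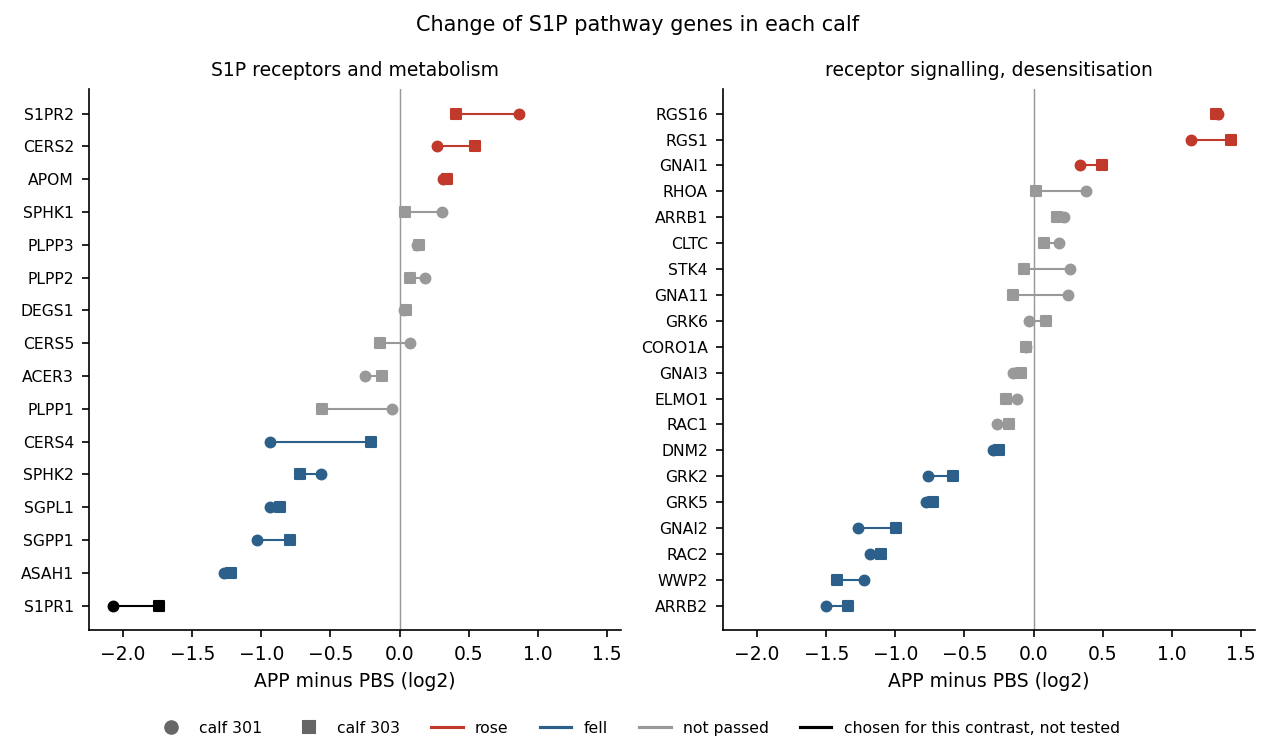
Log2 change, APP minus PBS (horizontal axis), of the measured S1P receptors and metabolic genes (left) and receptor signalling and desensitisation genes (right), with a circle for calf 301 and a square for calf 303. Red marks genes that rose and blue genes that fell at a limma adjusted p under 0.05, grey those that did not pass and black S1PR1, at -2.07 and -1.74, which was not tested. All directions are relative to the array bulk, and S1PR2 goes to -0.23 on the hybridization controls.

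Only 8 of 21 genes of the KLF2 and FOXO axis were measured, and KLF2, FOXO1 and IL7R were not among them. FOXO factors drive KLF2 in resting T cells and are shut off by PI3K and AKT. Of these 8 genes, 3 fell and 2 rose, beside 29.7% and 23% of all named genes. Their median was 0.06, and 7 fell and 0 rose on the hybridization control scale. PIK3R1, the regulatory subunit of PI3K, fell 5.31-fold. It stood at 0.367 and 0.348 in the APP arrays of calves 301 and 303, against 2.214 and 1.629 in their PBS arrays (limma adjusted p = 1.9e-05). FOXO4 fell by 0.64 ± 0.11 (SD, n = 2 calves, limma adjusted p = 0.00164) and AKT1 by 0.28 (limma adjusted p = 0.0423). AKT2 rose by 0.54 ± 0.12 (0.18 to 0.73 over its 3 probe sets) and FBXW7, a ubiquitin ligase subunit with KLF2 among its reported substrates, by 0.67 ± 0.32. On the scale of the hybridization controls AKT2 was at -0.33 and FBXW7 at -0.20. MEF2A (-0.14), ELF4 (0.25) and MEF2C (0.30), transcription factors of which ELF4 is a known activator of KLF2 in mouse T cells, did not pass (limma adjusted p = 0.249, 0.074 and 0.063), and ELF4 and MEF2C were at -0.62 and -0.57 on that scale. The probe sets of MEF2A ran from -0.51 to 0.14. MEF2A passed by its most variable probe set (-0.51, limma adjusted p = 0.00962). It also passed on the hybridization controls (-1.01), where limma's p follows the size of the change alone.

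Apart from PIK3R1, these calls were weak. Without the calf as a block AKT1 did not pass (limma adjusted p = 0.082), nor did FBXW7 (limma adjusted p = 0.055). In unblocked fits without 1 array, AKT1 did not pass in any of the 4 (limma adjusted p = 0.1 to 0.353). FBXW7 passed without the APP array of calf 301 (limma adjusted p = 0.0089), and did not without the APP array of calf 303, where its change was 0.37, or without the PBS array of calf 301 or of calf 303 (limma adjusted p = 0.086, 0.16 and 0.111). FOXO4 and AKT2 passed unblocked with all 4 arrays and did not without the PBS array of calf 301 (limma adjusted p = 0.076 and 0.082). The rises numbered 1 and the falls 2 without the block. The rises numbered 1 without the APP array of calf 303 or the PBS array of calf 303, and 0 without the PBS array of calf 301, where the falls numbered 1.

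Receptors that steer lymphocytes between tissues moved both ways, with 6 of 15 up and 3 down, beside 23% and 29.7% of all named genes. Their median was 0.09, and 2 were up and 11 down on the hybridization control scale. CXCR6, the receptor for the membrane chemokine CXCL16 and a frequent mark of tissue-resident T cells, stood at 1.251 and 1.981 in the APP arrays of calves 301 and 303, against 0.392 and 0.726 in their PBS arrays. Calf 303 was the higher animal in each group, by a mean of 0.78 on the log2 scale (limma adjusted p = 0.0199). CCR4, a receptor linked to skin homing, rose 2.59-fold and CD44, the hyaluronan receptor, 2.12-fold. CXCR4, which holds cells in bone marrow and lymphoid tissue, rose 1.66-fold (0.49 in calf 301 and 0.97 in calf 303), or stood at -0.14 on the hybridization controls. The falls were those of the integrin genes ITGAE (-0.93), ITGA4 (-0.90) and ITGB7 (-0.83), which encode the alpha E, alpha 4 and beta 7 chains of the gut-homing and epithelial-retention integrins. ITGA4 and ITGB7 were named after their values had been seen. Limma's adjusted p was 0.000133 for CCR4, 0.000211 for CD44, 0.00344 for CXCR4 and 0.000247 for ITGAE. The rises numbered 4 without the block, 3 without the APP array of calf 303, where CXCR6 did not pass, and 3 without the PBS array of calf 303, where CXCR4 did not pass (limma adjusted p = 0.066). CD44 was at 0.21 and did not pass on the hybridization controls (limma adjusted p = 0.155). The homing receptor genes CCR7 and GPR183 were not analysed here.

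Beside the lower SELPLG transcript, genes for enzymes that finish PSGL-1 moved both ways. Of 21 enzymes, selectins and partners of PSGL-1, 10 rose and 4 fell, beside 23% and 29.7% of all named genes. Their median was 0.26, and 2 rose and 17 fell on the hybridization control scale. TPST1, which sulfates the tyrosines that P-selectin recognises, rose 2.25-fold, with ratios of 1.432 and 1.436 in the APP arrays of calves 301 and 303, against 0.629 and 0.643 in their PBS arrays. TPST2, with the same activity, rose 1.75-fold, or stood at -0.06 on the hybridization controls. C1GALT1, which builds the core of the O-linked sugars, rose by 0.86 ± 0.10 (SD, n = 2 calves), or stood at -0.01 on the hybridization controls. VSIR, an inhibitory receptor reported to bind PSGL-1, rose 3.24-fold, with ratios of 1.435 and 2.010 with APP, against 0.510 and 0.538 with PBS. Limma's adjusted p for TPST1, C1GALT1 and VSIR lay between 6.27e-05 and 0.000403. Lower were B4GALT1 and ST3GAL3, which add sugars, at -0.54 and -0.47 (limma adjusted p = 0.00341 and 0.0104). SLC35C1, a sugar transporter, was lower by 0.39, with -0.97 and 0.19 for its probe sets (limma adjusted p = 0.0125).

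GCNT1, which starts the branch that carries the selectin-binding sugar, changed by -0.77 in calf 301 and -0.03 in calf 303 (limma adjusted p = 0.087). RDX, or radixin, of the family that ties PSGL-1 to the actin cortex, fell 2.93-fold (0.469 and 0.560 with APP, against 1.431 and 1.576 with PBS, limma adjusted p = 3.93e-05), while its relatives EZR and MSN rose by 0.53 and 0.42. On the hybridization controls EZR stood at -0.34 and MSN at -0.45. Without the block 8 genes of the list rose and 4 fell. Its rises numbered 6 without the APP array of calf 301, 5 without the APP array of calf 303, and 4 without either PBS array. Its falls numbered 2 without the APP array of calf 301 or the PBS array of calf 303 and 1 without the PBS array of calf 301. TPST2, B4GALT1, ST3GAL3, SLC35C1, GCNT1, EZR and MSN were named after their values had been seen.

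**Figure D5:**
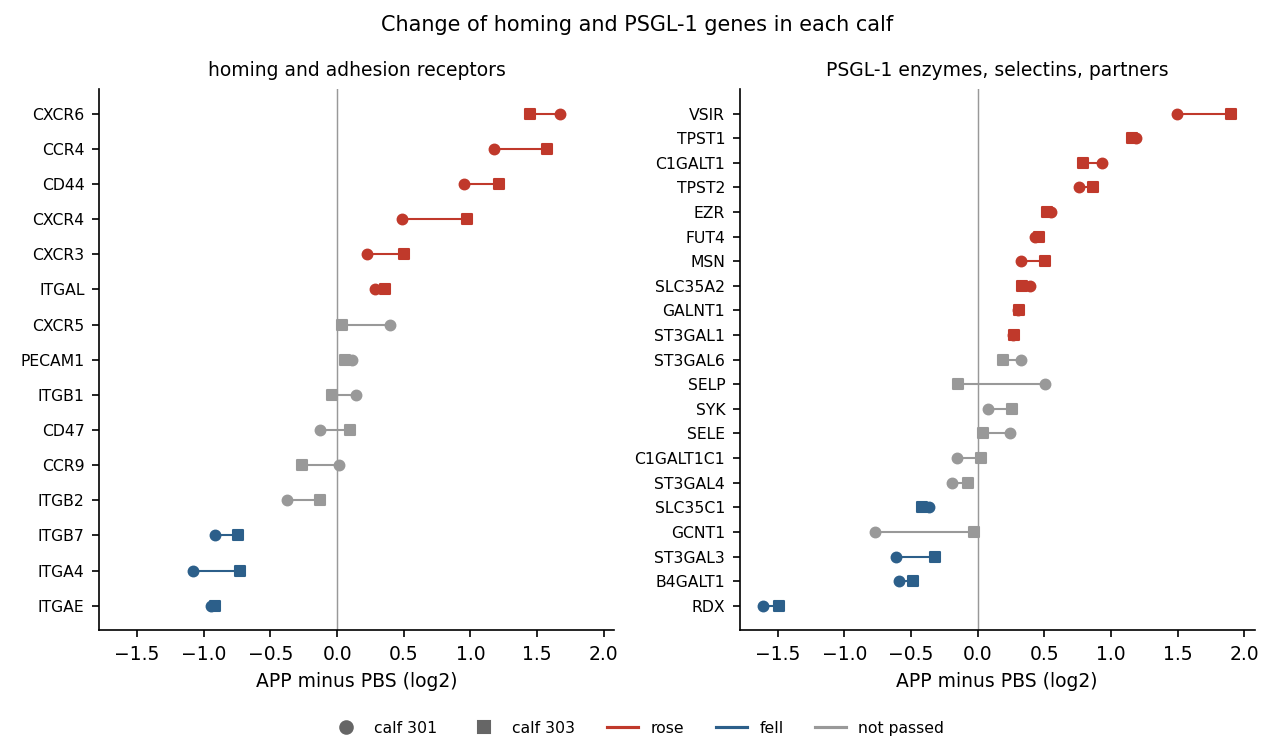
Log2 change, APP minus PBS (horizontal axis), of homing and adhesion receptors (left) and of enzymes, selectins and partners of PSGL-1 (right), with a circle for calf 301 and a square for calf 303 and colours as for the S1P genes. CXCR6 and VSIR lead the rises and ITGAE and RDX the falls. On the hybridization controls only 2 genes of each list rose, and CXCR4 and C1GALT1 were at -0.14 and -0.01.

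Of 11 measured relatives, ligands and partners of CD69, 4 rose and 2 fell, beside 23% and 29.7% of all named genes. Their median was 0.16, and 2 rose and 8 fell on the hybridization control scale. SLC3A2 and SLC7A5 form an amino acid transporter with which CD69 has been reported to associate. They rose 5.54-fold (log2 changes 2.50 and 2.44 in calves 301 and 303) and 3.17-fold (1.61 and 1.72), with limma adjusted p = 2.98e-05 for SLC7A5. STAT5B, a cytokine signal transducer, rose by 0.92 ± 0.30 (SD, n = 2 calves, limma adjusted p = 0.000919), or by 0.05 on the hybridization controls (limma adjusted p = 0.762). KLRB1, a lectin gene of the family to which CD69 belongs, fell by 0.40 ± 0.24 (limma adjusted p = 0.0235), a call lost without the calf as a block (limma adjusted p = 0.0502) and not regained in the unblocked fits without 1 array (limma adjusted p = 0.066 to 0.246). The falls of the list numbered 1 without the block and 0 without any 1 array. LGALS1, a galectin reported to bind CD69, fell by 0.33 and was named after its value had been seen.

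Regulators and marks of tissue residency rose in 9 of 12 cases and fell in 2, beside 23% and 29.7% of all named genes. Their median of 0.69 became -0.18 on the hybridization controls, where 5 rose and 5 fell. The largest rises were those of BHLHE40, which supports resident memory cells in mice (14.1-fold, 2.25 and 5.39 for its probe sets), CRTAM, an adhesion receptor of activated cytotoxic cells (log2 change 3.81), NR4A1, an activation-induced nuclear receptor (13.7-fold), and XCL1, a chemokine (4.36-fold). PRDM1, a repressor of S1PR1 in mouse resident cells, changed by 0.19 (limma adjusted p = 0.14), or by -0.68 on the hybridization controls. It was named after its value had been seen, as were the genes of the 2 falls. These were TCF7, a factor of recirculating cells (-0.70), and AHR (-0.46, limma adjusted p = 0.00617). Without the block 6 rose and 2 fell. The rises numbered 5 without the APP array of calf 303 and without either PBS array, and the falls 1 without the APP or the PBS array of calf 301 and 0 without the PBS array of calf 303. XCL1, which passed unblocked with all 4 arrays, did not without the APP array of calf 303 (change 1.41) and without the PBS array of calf 301 (change 1.52). BHLHE40, CRTAM, NR4A1, XCL1, SLC3A2 and CXCR6 were known to respond when the lists were drawn up. Their changes with APP are therefore a description, and no p is given for those changes. Whether XCL1 and CXCR6 passed in a given fit is likewise a description, and the counts that hold these genes are not independent evidence.

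The genes whose pattern lay closest to each selected gene were found by Euclidean distance over the 4 arrays, with each gene's log2 ratios centred on their own mean, among the 9154 other named genes. Those nearest S1PR1 were PRKACB, a catalytic subunit of protein kinase A (distance 0.11), RAB4A, a GTPase of endosome recycling (0.20), and LCAT, which esterifies cholesterol (0.24). Those nearest CD69 were ELL2, a transcription elongation factor (0.05), CHST2, a sugar sulfotransferase (0.08), and SLC16A1, a lactate and pyruvate carrier (0.10). Those nearest SELPLG were DNAJC10, a disulfide reductase of the endoplasmic reticulum (0.06), DGAT1, which makes triglycerides (0.06), and CENPC, a centromere protein (0.06). S1PR1 and SELPLG themselves lay 0.97 apart, and CD69 lay 4.66 from S1PR1 and 3.89 from SELPLG. The mean changes were -1.94 for PRKACB, -1.87 for RAB4A, -1.81 for LCAT, 2.73 for ELL2, 2.71 for CHST2, 2.65 for SLC16A1, -1.15 for DNAJC10, -1.19 for DGAT1 and -1.13 for CENPC. These genes were picked by their values and were not tested. Probe sets differed by more than 0.5 for PRKACB (-2.21 and -1.68), LCAT (-2.52 to -1.01 over 3) and DNAJC10 (-1.40 to -0.79 over 3).

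Other leukocytes also carry S1PR1, CD69 and PSGL-1, and the purity of the cells could not be read from values that hold no levels. Of 11 measured genes in the gamma delta T cell list, 6 fell (CD7, CD163L1, WC1.3, CD247, CD3G and CD2) and 1 rose (CD5). Among all named genes 29.7% fell and 23% rose. Most of this list is not particular to gamma delta cells, since other T cells also carry genes such as CD3D, CD3E and CD247. The mean log2 ratio of the 11 was -0.35 and -0.15 in the APP arrays of calves 301 and 303, against 0.12 and 0.20 in their PBS arrays. Of 28 measured markers in 5 lists for other cells, 6 rose and 3 fell, beside 23% and 29.7% of all named genes. The mean log2 ratio of the 7 monocyte and dendritic cell markers was 0.18 and 0.28 with APP, against -0.28 and -0.26 with PBS. CD14, FCGR1A and CD68 rose among them (-0.41, -0.41 and 1.44 on the hybridization controls), CD68 by 1.90 in calf 301 and 2.71 in calf 303. The 5 B cell markers averaged 0.05 and -0.08 with APP, against 0.07 and -0.003 with PBS, the 7 alpha beta T cell markers -0.20 and 0.28 against -0.46 and 0.16, the 5 NK cell markers -0.16 and 0.06 against -0.03 and 0.16, and the 4 platelet and neutrophil markers 0.10 and -0.01 against -0.09 and 0.02. Within the alpha beta T cell list, CD8B and CD8A were higher in calf 303 by a mean of 2.30 and 1.59 on the log2 scale. Limma's adjusted p was 0.000499 and 0.00673, and no other gene of that list passed for the animals. In other marker lists, CD2 of the gamma delta list and CD244 of the NK list were also higher in calf 303, by 1.10 and 0.81. FCER2 of the B cell list went the other way, at -0.55. Limma's adjusted p for the animals was 0.00382 for CD2, 0.0277 for CD244 and 0.0469 for FCER2. With APP, CD8A rose by 1.08, or by 0.21 on the hybridization controls, and CD8B fell by 0.64. The part of these markers in the values of S1PR1, CD69 and SELPLG was not tested.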

How the data were processed

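Values are from 4 Affymetrix bovine arrays, on which the authors ran RMA (named in the submitters' processing notes, without a version or options). The deposited values are linear ratios, a unit read from the values: after 1 factor per array (0.998 to 1.019) the mean of the 2 middle ratios of a probe set lay between 0.9996 and 1.0004 for the 24128 probe sets, leaving out the outer percentile at either end. Ratios were log2 transformed without a pseudocount. The 112 control probe sets were left out, and 24016 were tested. Of these, 13292 had 1 gene in the platform annotation, 86 several and 10638 none. Symbols were updated through RefSeq for 13263. Probe sets of a gene were averaged (9155 genes).

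APP against PBS was tested with limma 3.58.1 in R 4.3.3 (two-sided, Benjamini-Hochberg over all features, threshold 0.05), with the calf as a block. The titles name the same 2 calves in both treatments, and the difference between them correlated between APP and PBS (r = 0.514, a correlation across features). In the main fits limma added 5.86 prior degrees for genes and 5.19 for probe sets to the 1 residual degree of freedom. On the hybridization control scale it gave every gene nearly the same standard error. Gene calls there follow the size of the change and not each gene's own scatter. An exact permutation test of 2 arrays against 2 cannot go below p = 0.333 and was not run. The number of arrays limits the precision. The code was tested on simulated data.

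The selected genes and the lists were chosen with earlier results of these data known. Genes to name were those selected, every measured S1P receptor, all genes of the KLF2 and FOXO axis, CCR7, IL7R, CXCR4 and GPR183, up to 4 genes per list with the largest change past the threshold, and the 3 genes nearest each selected gene. A further gene of this rule is not reported here. Markers for cell types were named only in part. Of 164 listed symbols, 103 matched by symbol, and 61 were not analysed here. A planned search of promoter windows for motifs was not run, since no promoter sequence was used here. No array scan batch is given in the sources used here, so a batch that followed the treatment cannot be told apart from it.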

Additional observations from a re-analysis of the deposited data

Results flagged for a closer look

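The spiked hybridization controls, which no comparison of the study uses, carried a signal that differed between the treatments. Their 14 probe sets had a median log2 difference, APP minus PBS, of 0.87 in the mean of the calves, with 0.79 in calf 301 and 0.95 in calf 303.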

How the results depend on the processing

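S1PR1, CD69 and SELPLG kept their direction in the runs given here. Because the APP and PBS arrays of their probe sets do not overlap, leaving out 1 array or taking 1 probe set could not reverse it. Only a rescaling of the arrays could have done so. S1PR1 ranged from -2.78 to -1.56, CD69 from 1.85 to 2.82 and SELPLG from -2.04 to -1.002. S1PR1 was -1.56 and -2.25 by its single probe sets, between -2.19 and -1.62 without 1 array, and -2.78 on the hybridization controls, where CD69 was 1.85 and SELPLG -2.04. SELPLG was -1.03 and -1.31 by probe set, between -1.27 and -1.06 without 1 array, and -1.002 after quantile normalization. CD69 lay between 2.61 and 2.82 without 1 array. The calf difference of S1PR1 was -0.60 on the hybridization controls, where that of every gene shifts by the same amount.

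Without the replicate block 1399 genes rose and 2161 fell, and 2473 probe sets rose and 4273 fell. Without 1 array (no block) 745 to 1292 genes rose and 1305 to 2012 fell, and 1155 to 2406 probe sets rose and 2455 to 4281 fell. On the hybridization controls 284 genes rose and 8269 fell, and 611 probe sets rose and 21895 fell. The gene calls on that scale rest on nearly the same standard error for every gene. At least 2-fold in both calves, 320 genes rose and 576 fell, and 704 probe sets rose and 1545 fell. The 37 rises and 26 falls of listed genes were 18 to 24 and 15 to 20 without 1 array, and 13 and 80 on the hybridization controls. Of the 43 genes named by the rule, those that turned there were AKT2 (-0.33), C1GALT1 (-0.0074), CXCR4 (-0.14), ELF4 (-0.62), FBXW7 (-0.20), MEF2C (-0.57) and S1PR2 (-0.23). So did TPST2 (-0.06), EZR (-0.34), MSN (-0.45), SPHK1 (-0.70), PRDM1 (-0.68), CD14 and FCGR1A (-0.41 each). The cause of these differences was not tested, and fewer arrays by construction give fewer calls. Without the replicate block KLRB1, AKT1 and FBXW7 lost their calls (40 of 43 named genes kept their side of the threshold). A robust prior and median centring left all 43 on theirs.

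Signal over background cannot be recovered from ratios. No probe set used here is named for KLF2, and CD69 rests on 1 probe set.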
